A study of Mus musculus with 9 samples.

Results

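The retinoid handling genes are 9 genes whose products carry vitamin A, admit it to cells, convert it to retinoic acid or recycle it as visual chromophore, namely Ttr, Rbp4, Stra6, Aldh1a1, Aldh1a2, Aldh1a3, Crabp1, Rlbp1 and Rpe65. They were chosen by gene symbol, and all 9 were present among the 18349 genes listed for each library. All 9 also passed the filter on low counts, which kept 15010 genes. The measurements are bulk RNA-Seq of mouse iris. Each of 3 groups had 3 libraries, made from pools of 3 irises, which gives 9 libraries in all. Every group was of C57BL/6J background, carried floxed VEGFR3 on both alleles and received tamoxifen at 80 mg/kg from day 13 to day 17 after the procedure. In Sham VEGFR3 fl/fl mice the cornea was treated with PBS at 6 weeks of age. In injured VEGFR3 fl/fl mice, littermates without Cre, it underwent corneal alkali injury (CAI), in which sodium hydroxide (1 M, 0.5 μL on filter paper) stayed on the cornea for 60 seconds. The injured VEGFR3 iLECko group had the same injury and also carried Prox1-CreERT2, a Cre that tamoxifen activates in cells expressing Prox1, such as lymphatic endothelial cells. The irises, trimmed away from the ciliary body, came from animals of 10 weeks, and both sexes were used in the study.

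Vitamin A travels in blood as retinol bound to RBP4, which in turn binds transthyretin, the product of Ttr. STRA6 passes retinol across the cell membrane, alcohol and retinol dehydrogenases convert retinol to retinaldehyde, and the 3 ALDH1A enzymes make retinoic acid from it, which acts in the nucleus through the RAR and RXR receptors. In the eye another route, the visual cycle, stores retinol as ester through LRAT, converts the ester to 11-cis-retinol through RPE65 and holds the 11-cis forms on RLBP1. The pigmented epithelium behind the retina is the classical site of that cycle, and the 2 epithelial layers of the iris arise from the same embryonic optic cup.

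Total counts lay between 16617187 and 18306359 per library. Flt4, the mouse gene for VEGFR3, had 237 to 282 counts in Sham libraries, 277 to 400 in injured VEGFR3 fl/fl libraries and 370 to 478 in those labelled VEGFR3 iLECko. It was therefore not lower in the labelled knockout group (log2 fold change 0.34 ± 0.15 SE against injured VEGFR3 fl/fl, edgeR adjusted p = 0.2), and directions drawn from that group rest on its labels; VEGFR3 iLECko libraries below are the libraries so labelled. Whole iris RNA holds Flt4 from every cell type, and whether the counted reads cover the deleted part is not given in the sources used here. Some libraries stood apart from the others of their group. The summed level of 9 photoreceptor markers ranged, in CPM (counts scaled to library size by TMM), from 116 to 991 in Sham, from 22.9 to 654 CPM in injured VEGFR3 fl/fl and from 34.4 to 653 CPM in VEGFR3 iLECko libraries, with the high values in Sham replicate 1, injured VEGFR3 fl/fl replicate 2 and VEGFR3 iLECko replicates 1 and 3. Sham replicate 2 and VEGFR3 iLECko replicate 1 had the most liver plasma protein RNA, with sums of 23.1 and 12.9 CPM over 6 genes against at most 6.03 CPM in the other 7 libraries.

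In the Sham iris, levels set per transcript length ran from Ttr to Crabp1. Approximate transcript levels relative to the whole library (TPM, computed from counts and the longest annotated transcript) averaged 366 ± 37.6 for Ttr, 265 ± 14.6 for Rlbp1, 180 ± 39.9 for Aldh1a1 and 125 ± 10.4 for Stra6 (SD, n = 3). A lower tier held Aldh1a2 at 31.3 ± 2.23, Rpe65 at 11.6 ± 3.27, Aldh1a3 at 7.02 ± 0.544, Rbp4 at 5.26 ± 1.51 and Crabp1 at 2.32 ± 2.29 TPM. Neighbours in this order were further apart than the sum of their SDs except Aldh1a3 and Rbp4, and Rbp4 and Crabp1. In the injured VEGFR3 fl/fl iris Ttr (87.6 ± 102 TPM) and Rlbp1 (86.0 ± 7.86 TPM) could no longer be ordered, Aldh1a1 followed at 58.2 ± 6.73 TPM, and Aldh1a2 (39.5 ± 4.4 TPM) and Stra6 (30.9 ± 11 TPM) overlapped in their spread. Rpe65, at 1.02 ± 1.12 TPM, was then the lowest by mean, within the spread of Crabp1 at 2.65 ± 2.3 TPM. In VEGFR3 iLECko libraries Aldh1a1 had the highest mean, 129 ± 34.4 TPM, within the spread of Rlbp1 at 103 ± 15.1 TPM.

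**Figure D1:**
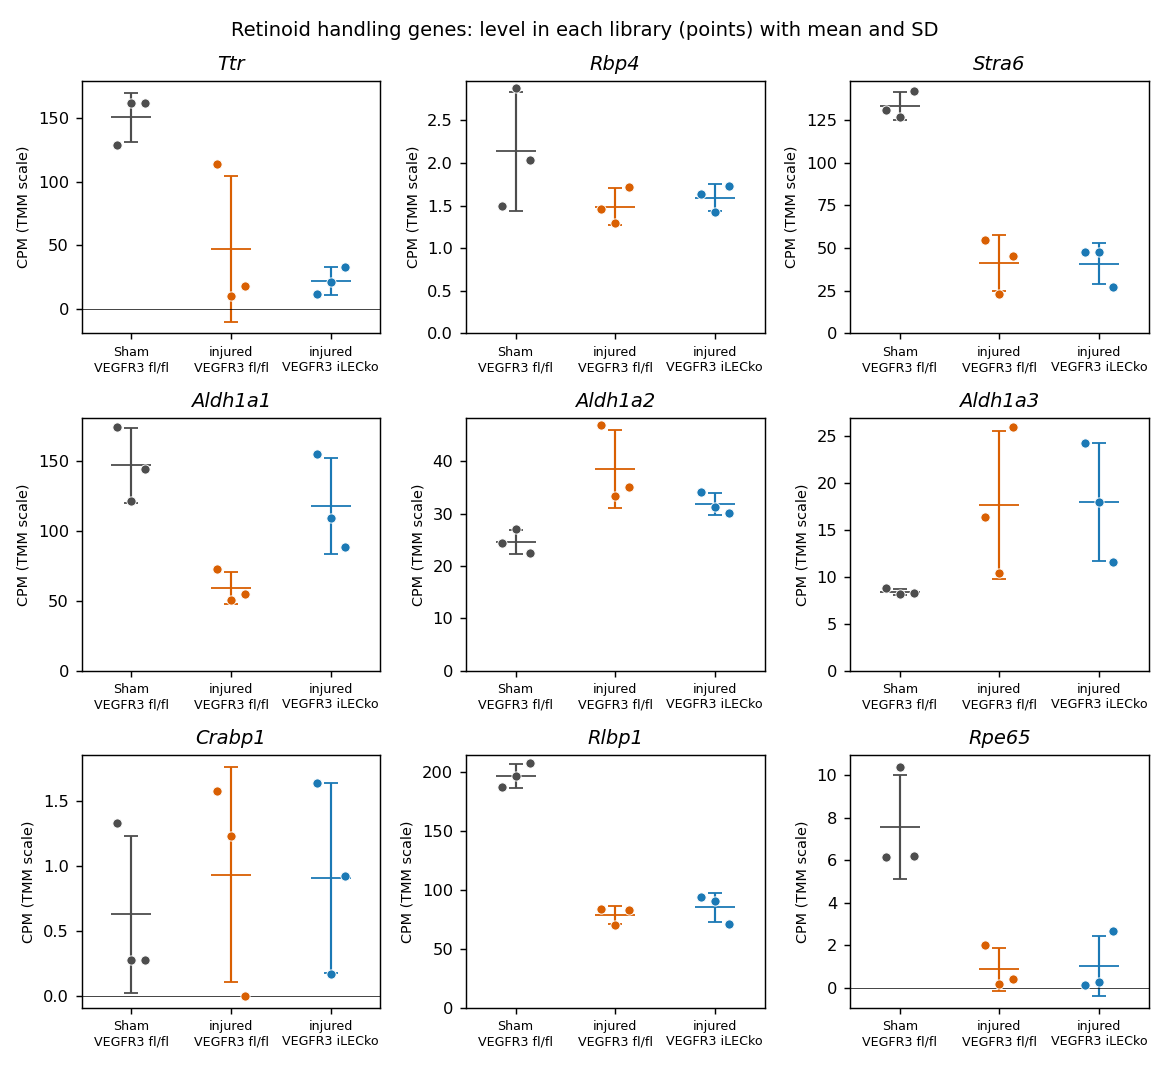
Level of each of the 9 retinoid handling genes in CPM on the TMM scale (y axis, linear) by group (x axis), with 1 point per library, a horizontal line at the mean and bars of 1 SD (n = 3 libraries). Stra6, Aldh1a1, Rlbp1, Rpe65 and Ttr have all 3 injured VEGFR3 fl/fl libraries below all 3 Sham libraries, while Aldh1a2 and Aldh1a3 have them above.

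The first comparison asks how the iris after CAI differs from the Sham iris. A gene was called when edgeR's quasi-likelihood test gave a Benjamini-Hochberg adjusted p under 0.05 over all genes tested and the change exceeded 1.5-fold. Of the 9 genes, 2 rose (Aldh1a2 and Aldh1a3), 4 fell (Aldh1a1, Rlbp1, Rpe65 and Stra6) and 3 did not pass (Ttr, Rbp4 and Crabp1). Among all 15010 genes 22.1% were called higher and 17.5% lower, 39.7% in either direction, so a call is common in this comparison. The median log2 fold change was -1.31 over the 9 genes and 0.0102 over all genes. Ttr, Rlbp1, Aldh1a1, Stra6 and Rpe65 each had every injured library below every Sham library, as did 32.4% of all genes, and Aldh1a2 and Aldh1a3 had every injured library above, as did 33.9%. With library size alone as the scale, the median of all genes shifted to -0.162 and higher calls went from 55.8% to 44.1% of all calls, and no member changed direction. In bulk tissue, fewer cells of a type and less RNA per cell cannot be told apart.

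Of the carriers and the receptor, Ttr (chr18:20664209-20674326, GRCm38.p6; NCBI Gene ID 22139), which carries RBP4 and thyroxine, had 2320, 2867 and 2879 counts in Sham libraries, numbered 1 to 3 as in all sets of values here. Injured VEGFR3 fl/fl libraries had 1871, 171 and 316 counts, and VEGFR3 iLECko libraries 195, 374 and 578. Injured replicate 1 stood near the Sham libraries, and the other 2 injured libraries held under 400 counts. The mean was 151 ± 19.4 CPM in Sham and 47.2 ± 57.6 CPM in injured VEGFR3 fl/fl (SD, n = 3), a log2 fold change of -1.68 ± 0.76 (SE) that missed the threshold in edgeR's test (adjusted p = 0.0841). This outcome depended on 1 library, since without injured replicate 1 the log2 fold change was -3.42 with an adjusted p of 0.00014. The same library had the highest Rpe65, Rgr and Lrat of its group, and 1921 counts of the corneal epithelial gene Aldh3a1 against 33 and 178 in replicates 2 and 3. The part of that library's makeup in the Ttr value was not tested.

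Stra6 (chr9:58063793-58154004; Gene ID 20897), the retinol transporter of the cell membrane, had 2368, 2241 and 2523 counts in Sham, 906, 394 and 792 after injury in VEGFR3 fl/fl and 822, 841 and 475 in VEGFR3 iLECko libraries. All 6 injured libraries lay below all Sham libraries. The mean fell from 133 ± 7.96 to 41.2 ± 16.4 CPM after CAI, which is 3.24-fold lower (log2 fold change -1.70 ± 0.30 SE, adjusted p = 0.00109). Rbp4 (chr19:38116620-38125321; Gene ID 19662), the plasma carrier of retinol that the liver makes in quantity, had 22 to 51 counts in each library. Its log2 fold change after CAI was -0.52, with a 95% interval from -1.17 to 0.14 and an adjusted p of 0.153, and Sham replicate 2, the library richest in liver genes, had its highest count.

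Of the retinoic acid synthases, Aldh1a1 (chr19:20492583-20643463; Gene ID 11668) had 3150, 2142 and 2561 counts in Sham, 1191, 861 and 952 after injury in VEGFR3 fl/fl and 2657, 1925 and 1536 in VEGFR3 iLECko libraries. The injured VEGFR3 fl/fl libraries were the 3 lowest of all 9. Aldh1a1 fell 2.48-fold after CAI, from 147 ± 26.8 to 59.1 ± 11.6 CPM (log2 fold change -1.31 ± 0.23 SE, adjusted p = 0.000868). Aldh1a2 (chr9:71215789-71296243; Gene ID 19378) moved the other way, with 441, 478 and 399 counts in Sham and 775, 569 and 610 in injured VEGFR3 fl/fl libraries. It rose 1.56-fold (log2 fold change 0.64 ± 0.14 SE, adjusted p = 0.00278), which is just past the fold threshold, and leaving out injured replicate 1 (0.47) or Sham replicate 3 (0.58) brought it under, as did library size alone as the scale (0.46). Aldh1a3 (chr7:66390892-66427477; Gene ID 56847) had 158, 144 and 146 counts in Sham and 271, 177 and 453 in injured VEGFR3 fl/fl libraries, and rose 2.10-fold (log2 fold change 1.07 ± 0.34 SE, adjusted p = 0.0219). The adjusted p rose above 0.05 when any 1 Sham library (0.0541 to 0.062) or injured replicate 3 (0.0843) was left out.

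The 3 ALDH1A genes were also set beside each other as shares of their summed counts. In Sham libraries Aldh1a1 made up 81.3 ± 3.41% of the counts of the 3 genes, Aldh1a2 14 ± 2.93% and Aldh1a3 4.71 ± 0.498% (SD, n = 3). In injured VEGFR3 fl/fl libraries these shares were 51.4 ± 3.56%, 33.4 ± 2.77% and 15.2 ± 6.33%. In VEGFR3 iLECko libraries they were 69.8 ± 2.54%, 19.6 ± 3.59% and 10.5 ± 1.4%. The Aldh1a1 share did not overlap between any of the 3 groups, from 77.5 to 84.0% in Sham, 47.2 to 53.6% in injured VEGFR3 fl/fl and 67.9 to 72.7% in VEGFR3 iLECko libraries. A two-sided exact permutation test gave p = 0.1 for each of these 3 differences, the smallest value that 3 libraries against 3 can give (0.129 after adjustment over 9 tests), so the design cannot pass 0.05 for a single share and none of the 9 tests did. The p was 0.3 for the Aldh1a3 share between the injured groups and 0.2 for the Aldh1a2 share between VEGFR3 iLECko and Sham libraries, and 0.1 for the other differences. Per transcript length the Aldh1a1 shares were 82.1, 53.1 and 71.6% in the same order.

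**Figure D2:**
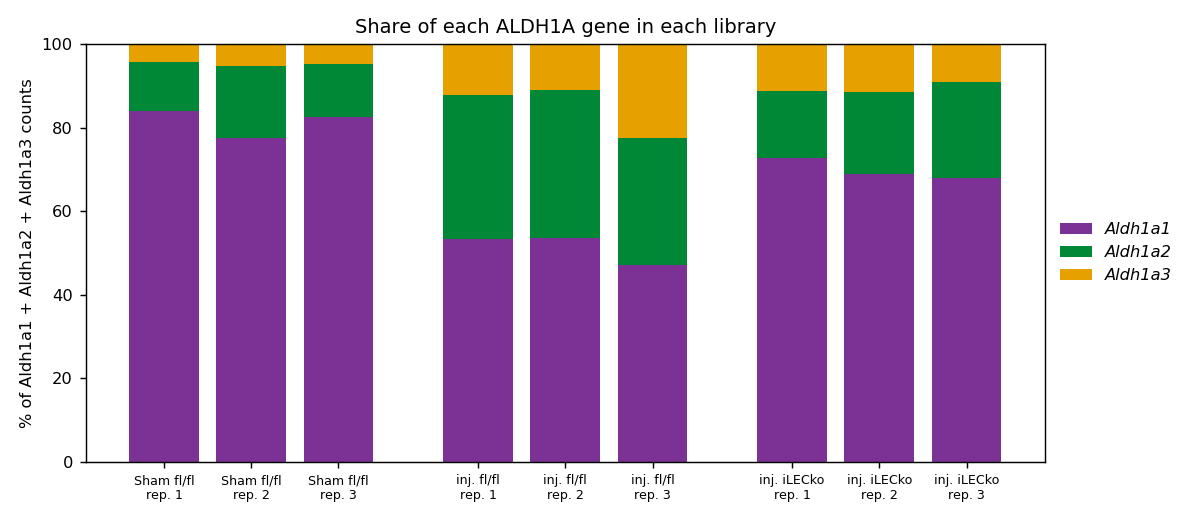
Share of Aldh1a1, Aldh1a2 and Aldh1a3 in their summed counts (y axis, percent) in each of the 9 libraries (x axis, Sham at the left, VEGFR3 iLECko at the right), as stacked bars that add to 100. The Aldh1a1 part averages 81.3% in Sham, 51.4% in injured VEGFR3 fl/fl and 69.8% in VEGFR3 iLECko libraries.

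Crabp1 (chr9:54764748-54773110; Gene ID 12903), which binds retinoic acid in the cytoplasm, had 0 to 28 counts per library and ranged widely within each group. Sham libraries had 24, 5 and 5 counts, injured VEGFR3 fl/fl libraries 26, 21 and 0, and VEGFR3 iLECko libraries 28, 3 and 16. No difference was detectable at this depth (log2 fold change after CAI 0.55, 95% interval -1.94 to 3.04, adjusted p = 0.685).

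Of the visual cycle members, Rlbp1 (chr7:79374865-79392250; Gene ID 19771), the carrier of 11-cis-retinal and 11-cis-retinol, had the smallest standard error of the 9 genes after CAI. Sham libraries had 3377, 3462 and 3680 counts, injured VEGFR3 fl/fl libraries 1374, 1199 and 1438 and VEGFR3 iLECko libraries 1606, 1602 and 1231. Its level fell 2.5-fold after CAI, from 197 ± 10.1 to 78.7 ± 7.39 CPM (log2 fold change -1.32 ± 0.12 SE, adjusted p = 1.45e-05). Rpe65 (chr3:159599075-159625307; Gene ID 19892), the isomerase that makes 11-cis-retinol, was scarce, with 111, 184 and 110 counts in Sham, 33, 3 and 7 after injury in VEGFR3 fl/fl and 2, 5 and 46 in VEGFR3 iLECko libraries. All 6 injured libraries were below all Sham libraries, although the highest exceeded the lowest 11.4-fold in injured VEGFR3 fl/fl and 22.7-fold in VEGFR3 iLECko libraries by CPM. The fitted change after CAI was 8.81-fold lower (log2 fold change -3.14 ± 1.01 SE, adjusted p = 0.0228), and the call was lost without Sham replicate 2, injured replicate 2 or injured replicate 3 (adjusted p 0.0554 to 0.0677).

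**Figure D3:**
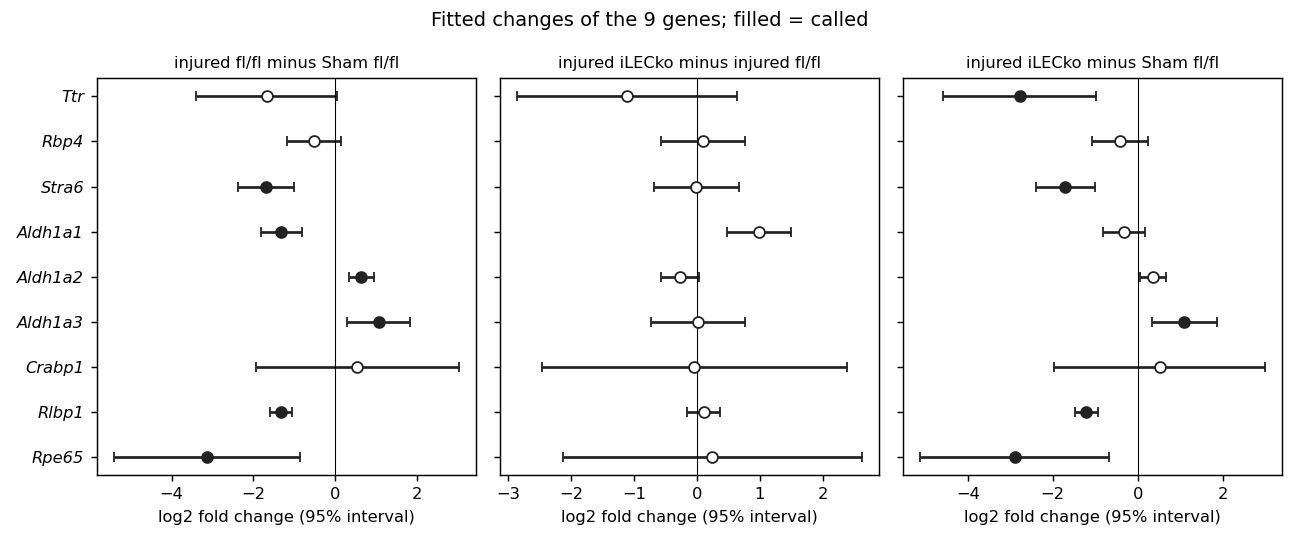
Fitted log2 fold change of the 9 genes (points) with 95% intervals (bars) in 3 comparisons, one per panel, where filled points passed both thresholds and open points did not. After CAI (left) 6 of the 9 points are filled, between VEGFR3 iLECko and VEGFR3 fl/fl injured libraries (middle) none is, and between VEGFR3 iLECko and Sham libraries (right) 5 are.

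Other genes moved alongside the falling members. Of 11 pigmented epithelium markers, which include the retinoid genes Rgr, Rdh5 and Lrat, 10 fell after CAI and Best1 rose, and their sum went from 27130 to 28860 CPM in Sham to 3370 to 5642 CPM in injured VEGFR3 fl/fl libraries. Most of that sum came from Dct, Pmel and Tyrp1, with Sham means of 10830, 8640 and 6587 CPM. Melanocyte markers fell too, 4 of 5, so the sum does not single out pigmented epithelium. All 5 Müller glia markers fell, with sums of 2202 to 2624 CPM in Sham and 902 to 1087 CPM after injury. Most of these sums was Glul alone, with means of 1944 CPM in Sham and 812 CPM after injury. Of 6 ciliary body markers 4 fell (Optc, Cldn2, Slc4a5 and Wfdc1), with sums of 1206 to 1553 and 327 to 383 CPM. The other 2, Atp6v1c2 and Cacna1e, had 3 to 27 and 19 to 33 counts in every library. Of 9 photoreceptor markers 0 were called by edgeR and 0 had an unadjusted p under 0.05. The part of these cell types in the falls of Aldh1a1, Stra6, Rlbp1 and Rpe65 was not tested.

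Promoters were searched because members of the visual cycle fell together, and the 3 stretches shown hold the sequence TAATCC, to which OTX2 and CRX bind. The part of this sequence in any fall was not tested. The stretches are from RefSeq (GRCm38.p6), are read 5′ to 3′ on the strand of the gene up to the last base shown, and have TAATCC, or its reverse complement GGATTA, in capitals. The Rpe65 stretch is chr3:159599099-159599180 on the plus strand, ends at the transcription start used here and has the match 42 to 37 bases before it. That start lies inside the annotated gene, which begins at 159599075, so the stretch and its match fall within the gene span. The Rgr stretch is chr14:37049136-37049221 on the minus strand, with the match 167 to 162 bases before the start. The Abca4 stretch is chr3:122044362-122044447 on the plus strand, with the match 58 to 53 bases before the start.
Rpe65: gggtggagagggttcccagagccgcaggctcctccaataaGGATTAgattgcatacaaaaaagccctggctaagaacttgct
Rgr: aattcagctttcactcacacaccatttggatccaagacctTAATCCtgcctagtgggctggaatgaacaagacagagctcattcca
Abca4: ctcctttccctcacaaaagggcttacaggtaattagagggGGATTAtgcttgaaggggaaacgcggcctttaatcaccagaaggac

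Windows of 250 bases before to 50 bases after the start were available for 7 of the 9 members (12 windows), all but Aldh1a3 and Ttr. On either strand, TAATCC occurred in 1 of the 7 members (Rpe65), CACGTG in 0 and TATAAA in 2 (Rbp4 and Rlbp1). Of all 32851 windows, 7.06% held TAATCC, 7.15% CACGTG and 13.6% TATAAA. Counting the other retinoid pathway genes as well, 7 of 43 genes with a window held TAATCC, and a gene may have several windows. Besides the 3 genes shown, which were picked among the fallen ones, these were Rbp3, which was not called after CAI, and Bco1, Cyp26c1 and Rdh16, which did not pass the filter on low counts. The windows of Aldh1a1, Rlbp1 and Stra6, which fell, did not hold these letters. Neither did those of fallen pathway genes such as Adh1, Bco2, Rarb and Rdh9.

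The wider pathway was described with 6 lists holding 47 genes, of which 46 were listed and 38 passed the filter. After CAI 11 of the 38 rose and 9 fell, with a median log2 fold change of -0.0165, beside 22.1% and 17.5% of all genes. The direction differed between lists. Of the binding and uptake genes 4 of 8 tested rose and the other 4 were not called, and of the storage and visual cycle genes 5 of 9 fell and the other 4 were not called. Of the retinol and retinal redox enzymes 1 of 13 rose and 4 fell. Both breakdown genes tested rose, and of 6 receptors 2 rose and 1 fell. Of the 11 retinoic acid targets tested, a list that shares genes such as Rarb, Cyp26a1, Cyp26b1, Dhrs3, Crabp2 and Lrat with the others, 5 rose and 2 fell. Stra6l, Dhrs9 and Rarres1, counted among the rises, had Sham counts under the filter minimum of 10. They passed the filter through injured libraries alone, so a call of them could only be a rise.

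Among the binding and uptake genes, Fabp5, which carries fatty acids and can deliver retinoic acid, had 124, 159 and 128 counts in Sham and 17560, 12487 and 11716 in injured VEGFR3 fl/fl libraries (log2 fold change 6.74 ± 0.23 SE). Stra6l, whose product is another cell surface receptor for RBP4, had 2, 5 and 3 counts in Sham and 853, 378 and 525 after injury (7.48 ± 0.52). Stra6 and Stra6l thus changed in opposite directions, and per transcript length Stra6l stood at 11 ± 3.95 TPM beside 30.9 ± 11 TPM for Stra6 in injured VEGFR3 fl/fl libraries. Crabp2, which brings retinoic acid to its receptors, rose by a log2 fold change of 3.08 ± 0.36, and Cd36, a scavenger receptor that takes up lipids, by 3.32 ± 0.36. All 8 macrophage markers rose in the same libraries, with sums of 434 to 454 CPM in Sham and 12040 to 20570 CPM in injured VEGFR3 fl/fl libraries, and their part in these rises was not tested.

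The genes of the visual cycle list that fell act in storage, isomerization, transport and oxidation. Rgr, an opsin of pigmented epithelium that helps return all-trans-retinal to the 11-cis form, had 1265, 1663 and 1394 counts in Sham, 312, 49 and 40 after injury in VEGFR3 fl/fl and 67, 90 and 227 in VEGFR3 iLECko libraries (log2 fold change after CAI -3.34 ± 0.73 SE). Lrat, which esterifies retinol for storage, had 197, 205 and 241 counts in Sham and 68, 13 and 24 after injury (-2.53 ± 0.49). The high libraries of Rgr were injured replicate 1 and VEGFR3 iLECko replicate 3, which were also the high ones of their groups for Rpe65 and Ttr. Abca4, the transporter of retinal conjugates, had 5029, 3517 and 4847 counts in Sham and 865, 836 and 924 in injured VEGFR3 fl/fl libraries (-2.28 ± 0.24), and Rdh5, the 11-cis-retinol dehydrogenase, fell by 1.75 ± 0.19 on the log2 scale. Bco2, which cleaves carotenoids, fell by 1.15 on the same scale. Rbp3, Rdh8 and Rdh12, which photoreceptors express, overlapped between Sham and injured VEGFR3 fl/fl libraries, and Rbp3 had 2148 counts in Sham replicate 1 and 1764 in injured replicate 2 against 190 to 1089 in the other 4 libraries of these 2 groups. Rdh12, a retinol dehydrogenase, had 135, 157 and 300 counts in VEGFR3 iLECko libraries against 111, 40 and 60 in Sham. It was called higher in the VEGFR3 iLECko libraries (log2 fold change 1.53, edgeR adjusted p = 0.0282). The call was lost without Sham replicate 2 (0.0934), Sham replicate 3 (0.0878) or VEGFR3 iLECko replicate 3 (0.117). It was also lost without the 2 libraries richest in liver markers (0.0876) and with the replicate number as a block (0.0649).

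**Figure D4:**
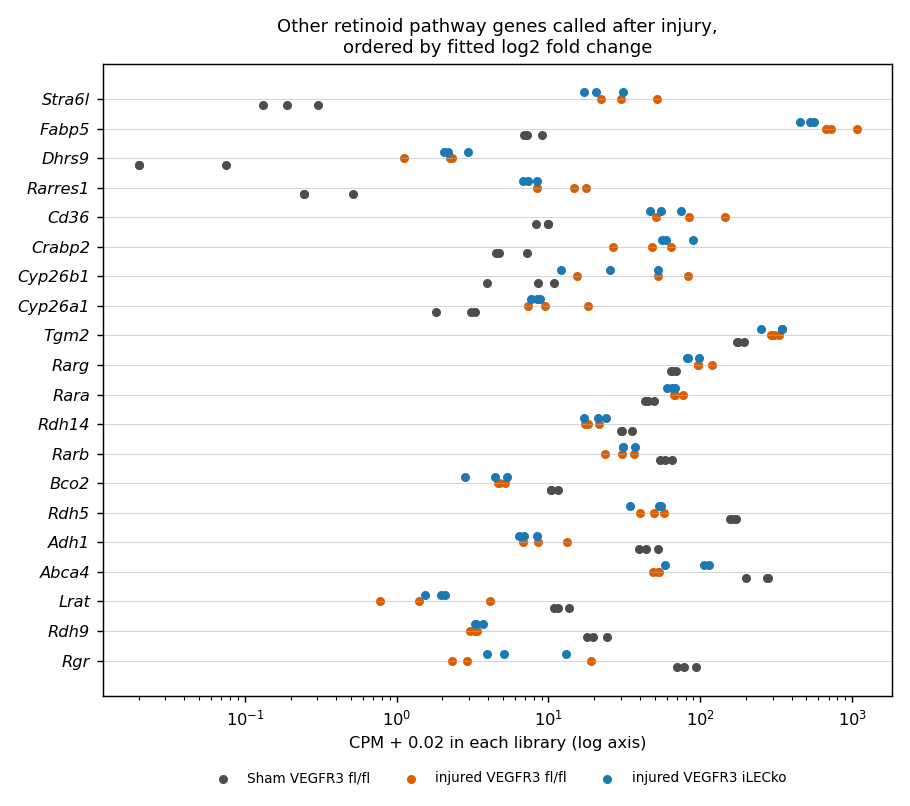
Level in each library (CPM + 0.02, log axis, 3 points per group) of the 20 other retinoid pathway genes called after CAI, ordered from the largest fitted rise (top) to the largest fitted fall (bottom). Stra6l has 2 to 5 counts per Sham library and 378 to 853 per injured VEGFR3 fl/fl library, and Rgr 1265 to 1663 against 40 to 312.

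Of the redox enzymes, Adh1, an alcohol dehydrogenase that oxidises retinol, fell by 2.26 ± 0.23 (SE) on the log2 scale after CAI, Rdh9 by 2.68 ± 0.15 and Rdh14 by 0.74 ± 0.14. Dhrs9, a retinol dehydrogenase, had 1, 0 and 0 counts in Sham and 18, 39 and 39 in injured VEGFR3 fl/fl libraries, which is at least 11.1-fold higher when each Sham library is set to a floor of 3 counts. Dhrs3, which reduces retinal to retinol, had the highest mean CPM of this list over the 9 libraries, with 260 ± 23.3 CPM in Sham and 197 ± 31.1 CPM after injury (log2 fold change -0.40, adjusted p = 0.129). Per transcript length Rdh5 had the higher mean in Sham, at 357 ± 18.9 against 321 ± 25.2 TPM. These 2 were closer than the sum of their SDs, so they could not be ordered. Both tested enzymes that degrade retinoic acid were higher. Cyp26a1 had 55, 32 and 58 counts in Sham and 299, 162 and 127 after injury (2.10 ± 0.35), and Cyp26b1 had 153, 69 and 192 against 1359, 264 and 912 (2.69 ± 0.70).

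The receptors changed less. Rara and Rarg rose by 0.62 ± 0.08 and 0.65 ± 0.11 on the log2 scale, both just past the 1.5-fold threshold and under it when library size alone set the scale. Rara was also under it without Sham replicate 1 (0.57) or injured replicate 3 (0.56), and Rarg without injured replicate 1 (0.54). Rarb, a receptor that is itself a retinoic acid target, had 1064, 963 and 1155 counts in Sham and 385, 629 and 528 in injured VEGFR3 fl/fl libraries (-0.98 ± 0.16). Rxra, the receptor with the highest mean CPM, had a mean of 127 CPM in Sham and 160 CPM after injury, under the fold threshold (log2 fold change 0.33). Per transcript length Rxra and Rarg were at 74.7 ± 3.1 and 64.6 ± 4.79 TPM in Sham and at 76.2 ± 5.24 and 81.8 ± 3.49 TPM after injury. The targets did not share a direction. Crabp2, Cyp26a1, Cyp26b1, Rarres1 (5.39 ± 0.39) and Tgm2, a transglutaminase (0.77 ± 0.12), rose, while Rarb and Lrat fell.

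Rarb and Cyp26a1, which moved in opposite directions, were the 2 of 43 genes whose windows held the DR5 retinoic acid response element, a direct repeat of the receptor half-site. It was found in 0.0974% of all windows, and in 0 of the 7 members with one. Their RefSeq stretches (GRCm38.p6), with the half-sites in capitals, are chr14:16575477-16575569 on the minus strand for Rarb, with the element 53 to 37 bases before the start, and chr19:37697736-37697807 on the plus strand for Cyp26a1, with the element 32 to 16 bases before the start and on the opposite strand.
Rarb: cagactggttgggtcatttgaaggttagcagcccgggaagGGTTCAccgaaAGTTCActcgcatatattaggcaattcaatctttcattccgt
Cyp26a1: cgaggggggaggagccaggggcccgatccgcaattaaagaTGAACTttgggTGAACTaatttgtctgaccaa

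The second comparison asks how the injured iris differs when VEGFR3 is deleted in Prox1-expressing cells. In VEGFR3 iLECko against VEGFR3 fl/fl injured libraries, edgeR called 0 of the 9 genes, where 0.573% of all genes were called higher and 0.466% lower, 1.04% in either direction. At an unadjusted p under 0.05 there was 1 of the 9, Aldh1a1, beside 3674 of 15010 genes. Aldh1a1 was higher in all 3 VEGFR3 iLECko libraries (1536 to 2657 counts) than in all 3 injured VEGFR3 fl/fl libraries (861 to 1191 counts), with means of 118 ± 34.2 and 59.1 ± 11.6 CPM. Such separation with every library higher occurred in 12.4% of all genes, and with every library lower in 14.3%. The log2 fold change of 0.99 ± 0.22 (SE; 95% interval 0.48 to 1.5) narrowly missed the threshold in edgeR's test (adjusted p = 0.0612), while DESeq2 called Aldh1a1 (adjusted p = 0.000749). Over the 22 alternatives its log2 fold change ranged from 0.74 to 1.17. With 1 library left out, its edgeR adjusted p ranged from 0.0588 to 0.167.

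The summed level of the 6 ciliary body markers differed between the same libraries, at 571 to 777 CPM in VEGFR3 iLECko and 327 to 383 CPM in injured VEGFR3 fl/fl libraries. Of these markers Optc (log2 fold change 1.54, adjusted p = 0.0214) and Cldn2 (1.12, adjusted p = 0.0278) were called higher, and of 5 Müller glia markers Glul was (0.59, adjusted p = 0.0479). Of the 6 ciliary body markers 3 had higher and 3 lower values in VEGFR3 iLECko libraries, the lower ones being Wfdc1 (log2 fold change -0.70), Atp6v1c2 (-1.17) and Cacna1e (-0.00042), and Optc and Slc4a5 (0.74, not called, adjusted p = 0.0699) made up most of the sum. The mean of Cldn2 in VEGFR3 iLECko libraries, 123 CPM, was also above the Sham mean of 87.9 CPM. The part of ciliary or glial RNA in the Aldh1a1 value was not tested.

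**Figure D5:**
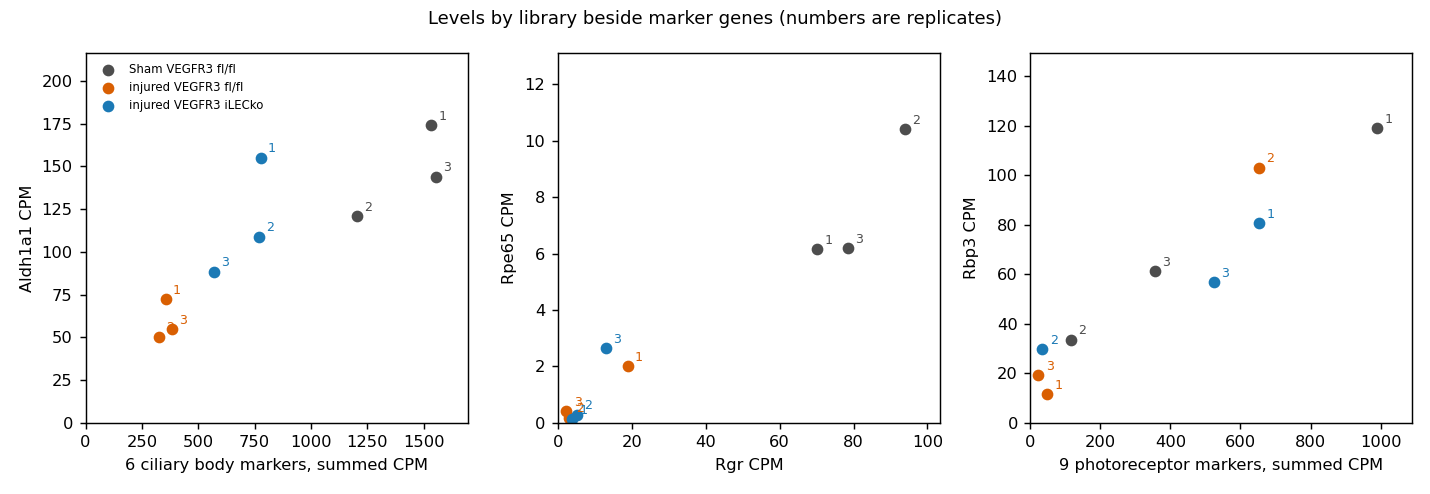
Aldh1a1 against the sum of 6 ciliary body markers (left), Rpe65 against Rgr (middle) and Rbp3 against the sum of 9 photoreceptor markers (right), in CPM on both axes, with 1 point per library coloured by group and numbered by replicate. Aldh1a1 is lowest in the 3 injured VEGFR3 fl/fl libraries with marker sums of 327 to 383 CPM, and Rpe65 and Rgr share their high libraries within both injured groups.

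For the other members the difference between the injured groups was small or poorly bounded. Rlbp1 had a log2 fold change of 0.11 with a 95% interval from -0.15 to 0.37, and Stra6 one of -0.0058 with an interval from -0.69 to 0.67. Aldh1a2 was at -0.27 (-0.58 to 0.03) and Rbp4 at 0.10 (-0.57 to 0.76). Aldh1a3 had 414, 318 and 202 counts in VEGFR3 iLECko libraries and 271, 177 and 453 in injured VEGFR3 fl/fl libraries, a log2 fold change of 0.03 (-0.72 to 0.77). The intervals of Rpe65 (-2.13 to 2.63) and Crabp1 (-2.46 to 2.38) left changes of several fold in either direction possible. That of Ttr was -2.85 to 0.65, and without injured replicate 1 the value of Ttr turned from -1.10 to 0.64.

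Of the 38 pathway genes tested in this comparison, only Rdh10 was called. Rdh10 makes retinaldehyde from retinol for retinoic acid synthesis, the step before the ALDH1A enzymes. It had 974, 989 and 1111 counts in VEGFR3 iLECko, 560, 582 and 733 in the injured controls and 733, 615 and 708 in Sham libraries, a log2 fold change of 0.68 ± 0.11 (SE, adjusted p = 0.0278) between the injured groups. The call did not hold in 10 of 22 alternatives, among them each that left out 1 VEGFR3 iLECko library. Lrp2, an endocytic receptor for RBP4 complexes, had a log2 fold change of 1.2 (adjusted p = 0.0573), Abca4 one of 0.85 (0.0827) and Fabp5 one of -0.68 (0.0773), each with no overlap between the groups and none called. Rdh10 and the uncalled Rdh13 and Dgat1 were also higher without overlap, and the uncalled Rxra, Rxrb and Hic1 lower. Such separation occurred in 12.4% of all genes with every library higher and in 14.3% with every library lower. Lrp2 was named after its value was seen.

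Against Sham, the VEGFR3 iLECko libraries had 5 of the 9 genes called, where 19.7% of all genes were called higher and 15.0% lower, 34.8% in either direction. Aldh1a3 was higher (log2 fold change 1.10, adjusted p = 0.0218), and Rlbp1 (-1.21, 3.28e-05), Stra6 (-1.70, 0.00128), Rpe65 (-2.89, 0.0327) and Ttr (-2.78, 0.0156) were lower. The calls of Aldh1a3, Rpe65 and Ttr were lost without VEGFR3 iLECko replicate 1 or replicate 2 (adjusted p 0.0501 to 0.0989), and those of Aldh1a3 and Rpe65 also without any 1 Sham library (0.0546 to 0.0917). Aldh1a1 had a log2 fold change of -0.32 with a 95% interval from -0.82 to 0.18 (adjusted p = 0.251). Aldh1a2 was at 0.37 (adjusted p = 0.0434), under 1.5-fold. This comparison shares its Sham libraries with the first and its VEGFR3 iLECko libraries with the second, so the 3 comparisons are not independent.

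The genes most like each member in pattern were found by the root mean square difference of log2 levels over the 9 libraries, each profile centred on its Sham mean, among 14230 genes. Rpe65 was nearest to Ttr, at 0.57, and Ttr to Lrat (0.55) and then Rpe65, so that genes of the retinoid set were each other's neighbours there. Rpe65 had Mfsd2a second (0.63). Rlbp1 was nearest to Ppp1r26 (0.062) and Pgap4 (0.066), Stra6 to Lix1 (0.16) and Mogat1 (0.18), and Aldh1a1 to Fads2 (0.23) and Acsl3 (0.25). Aldh1a2 was nearest to Llph (0.068) and Scarf2 (0.07), Aldh1a3 to Slc9a4 (0.19) and Naaa (0.24), and Rbp4 to Nme4 (0.11) and Fam241a (0.12). Crabp1, at its low counts, was nearest to Prdm8 (0.39) and Nkain3 (0.46). Among the members themselves, Aldh1a1 was nearest to Rlbp1 (0.54), at rank 1744 of all genes, and Stra6 was nearest to Rlbp1 (0.48), at rank 263.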

How the data were processed

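Bulk mRNA libraries of mouse iris (TruSeq, single-end reads of the BGISEQ-500) were sequenced by the authors, who aligned reads with HISAT2 2.0.4 and Bowtie2 2.2.5 (mm10 and DESeq2 1.4.5 are also named in the submitters' processing notes). They deposited estimated counts per gene without normalization, of which 9.83% to 10.3% in a library were not whole. The counting program is not given in the sources used here. The study left out genes under a TPM minimum, which was not applied here. A combined table of the series held the same values and was used only to check this. The genotype tags of VEGFR3 iLECko replicates 2 and 3 name another VEGFR number, and their titles and descriptions were followed.

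In R 4.3.3 the estimated counts were rounded, and edgeR 4.0.16 selected genes (filterByExpr, 15010 of 18349), normalized by TMM (factors 0.90 to 1.09) and fitted all 9 libraries together with group as the only term. Calls needed a quasi-likelihood adjusted p under 0.05 (Benjamini-Hochberg over all genes) and a change over 1.5-fold. Standard errors came from the F statistic and intervals from the t distribution. Totals were 16617187 to 16838904 counts in Sham, 17538981 to 18306359 in injured VEGFR3 fl/fl and 17561521 to 17591702 in VEGFR3 iLECko libraries. Replicates differed by more than counting noise (chi-square per degree of freedom 5.13 to 76.2), and floors of 3 counts cover counting error only. Approximate TPM used the longest GENCODE M21 transcript, available for 96.1% of genes. Promoters were RefSeq windows of GRCm38.p6. The scripts were tested on simulated data. Alternatives, with DESeq2 1.42.0 among them, are given at the end, and 3 of the 22 were added after seeing the data.

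The members and all gene lists were chosen with earlier results of these data known. Named were all 9 members, each pathway gene called in the first or second comparison, the 2 with the highest mean CPM of each list, the 2 nearest genes in pattern of each member, and the marker lists. Some others, such as Rbp3, Rdh8 and Rdh12, were named outside that rule. A result on 1 further gene of that rule is not reported here. Libraries pooled 3 irises each, so that p-values measure the spread between pools.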

Additional observations from a re-analysis of the deposited data

How the results depend on the processing

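Of 22 alternatives, 9 left out 1 library each. The alternative without the 4 libraries richest in photoreceptor markers left 1 VEGFR3 iLECko library, replicate 2. For comparisons with that group it is given by log2 fold change only. After CAI, 4 to 6 of the 9 genes were called in every alternative (6 without the 4 libraries richest in photoreceptor markers) and the directions of the 6 called genes held. The number of all genes called was 5953, and 9000 with no fold threshold. Between VEGFR3 iLECko and Sham libraries, 5 of the 9 genes were called, 2 to 5 when 1 library was left out and 3 without the 2 libraries richest in liver markers. Without those 2, Aldh1a1 was called lower there (log2 fold change -0.69, adjusted p = 0.0288). All genes called there were 5223, with 8175 under no fold threshold, 3447 at more than 2-fold and 3150 without the 4 photoreceptor-rich libraries. DESeq2 gave no adjusted p for Ttr in any of the 3 comparisons.

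The comparison of the injured groups was the least stable. Of all genes 156 were called, beside 630 by DESeq2 and 0 in a fit of only the 6 libraries compared (879 at an unadjusted p under 0.05 and over 1.5-fold). There were 41 at more than 2-fold, 6 without the 2 liver-rich libraries and 32 with the photoreceptor marker level as a covariate. With 1 library left out there were 0 to 281 (0 without VEGFR3 iLECko replicate 2, 281 without injured VEGFR3 fl/fl replicate 3). Of the 9 genes 1 was called by DESeq2. Of the pathway genes, 1 was called in the main analysis, 4 by DESeq2 and 0 to 2 when 1 library was left out. In the 6-library fit, at more than 2-fold, without the 2 liver-rich libraries and with the covariate it was 0. Causes were not tested.

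With the replicate number as a block, 1 of the 9 genes (Aldh1a1, adjusted p = 0.0485) and 24 of all genes were called between the injured groups, and Stra6 and Crabp1 turned to 0.027 and 0.060. The numbers do not show pairing, since 1 of 9 same-numbered pairs had a correlation of deviations over 0.1 (-0.355 to 0.187, others -0.258 to 0.353) and 2 of 9 libraries correlated best with their own number.

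The values that changed sign were not called in the comparison concerned, among them Ttr (-1.10 between the injured groups). With 1 library left out, log2 fold changes between the injured groups ranged from -0.25 to 0.42 for Aldh1a3, -2.05 to 1.79 for Rpe65, -0.29 to 0.26 for Stra6, -0.77 to 0.56 for Crabp1 and -1.58 to 0.64 for Ttr. Those of Crabp1 ranged from -0.049 to 1.70 after CAI and -0.21 to 1.66 between VEGFR3 iLECko and Sham libraries. Without the 4 photoreceptor-rich libraries 1 VEGFR3 iLECko library was left. The injured groups then differed by -0.24 for Aldh1a3, -0.17 for Rbp4 and -2.05 for Rpe65, and Crabp1 was at -0.70 against Sham. Without the 2 liver-rich libraries Aldh1a3 was at -0.25 between the injured groups, and Crabp1 was at -0.56 between VEGFR3 iLECko and Sham libraries. Between the injured groups, Stra6 was at 0.069 and Crabp1 at 0.030 with library size alone. Stra6 was at 0.0038 there in the 6-library fit and at 0.21 with the covariate.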

Other observations

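Other cell types of the iris were followed by their marker lists. Of 6 smooth muscle markers 4 fell after CAI, with sums of 7109 to 9102 CPM in Sham, 1319 to 2743 CPM in injured VEGFR3 fl/fl and 1968 to 3020 CPM in VEGFR3 iLECko libraries, and of 5 melanocyte markers 4 fell, with sums of 1563 to 1879, 239 to 486 and 424 to 530 CPM. Of 8 stromal fibroblast markers 6 rose (3819 to 4385, 15550 to 22520 and 16430 to 20750 CPM), as did 2 of 7 endothelial markers while 1 fell (342 to 366, 758 to 868 and 751 to 906 CPM). Of the 8 macrophage markers 4 were lower in VEGFR3 iLECko than in injured VEGFR3 fl/fl libraries, with sums of 7805 to 9697 and 12040 to 20570 CPM. Corneal epithelial markers summed to 8.73 to 51.0 CPM in Sham, 4.04 to 117 CPM in injured VEGFR3 fl/fl and 3.51 to 3.91 CPM in VEGFR3 iLECko libraries. Of 5 lens markers tested, Cryab and Bfsp2 fell after CAI, whereas Cryaa, an abundant lens crystallin, rose from 1, 2 and 0 to 48, 607 and 541 counts, and Crybb2 was called higher with 0 counts in every Sham library and 38, 318 and 0 after injury. The lens list summed to 601 to 765 CPM in Sham, 295 to 359 CPM in injured VEGFR3 fl/fl and 262 to 355 CPM in VEGFR3 iLECko libraries, most of it Cryab. Best1, a chloride channel of pigmented epithelium, rose after CAI from 17, 12 and 23 to 130, 45 and 69 counts (log2 fold change 2.30, edgeR adjusted p = 0.00126) while the other 10 markers of that list fell. Best1 was named after its value was seen.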
